A study of Mus musculus with 12 samples.

Results

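The ciliary dynein arm genes described here are 10 mouse genes, Dnah5, Dnah9, Dnah11, Dnah6, Dnah7a, Dnaic1, Dnaic2, Dnali1, Dynlrb2 and Armc4. They were chosen as named subunits or docking factors of the dynein arms, and every probe that carries the symbol of a member, or an older name of it such as Dnahc5, was read. Of these 10 genes among 17711 genes named on the array, 8 had a named probe, and 6 were detected widely enough to be tested among 9526 tested genes. Dnah6 and Dnah11 had no named probe, and Dnah9 and Dnali1 were detected on 0 of 12 arrays.

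The study measured RNA on Illumina MouseWG-6 bead arrays in 4 groups of C57Bl/6 cells, with 3 independent biological replicates in each. Neurospheres (NSP) were cultured from spinal cord (SC) ependymal cells of adult mice and were not sorted. SC ependymal cells and lateral ventricular wall (LVW) ependymal cells were sorted directly from adult tissue as CD133+/CD24+/CD45-/CD34- cells. Radial glia were sorted from embryonic forebrain at embryonic day 14.5 as CD133+/CD24-/CD45-/CD34- cells. They differ from both ependymal groups in age and CD24 gate at once. Region differs as well, as forebrain against spinal cord for SC and as forebrain against ventricular wall for LVW. The parts of these differences cannot be told apart. All groups share the strain, a column-based RNA extraction and amplification of the RNA in 2 rounds, and no group carries a transgene or a treatment in the labels.

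Motile cilia bend because rows of dynein motors on the outer microtubule doublets of the axoneme walk along the neighbouring doublet. Each doublet carries outer arms, which set beat frequency, and several kinds of inner arm, which shape the bend. An arm is built in the cytoplasm from heavy chains (the motors), intermediate chains and light chains with the help of assembly factors, is carried into the cilium, and is fixed to the doublet by a docking complex. Ependymal cells line the ventricles and the central canal, and beating cilia are a defining feature of many of them, whereas radial glia and dividing progenitors are known for a single primary cilium without dynein arms.

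A short stretch of promoter is shown for 5 members. Of them, 3 hold the same motif close to the gene's start and the other 2 a close variant of it. Close variants in Dnah9 and Dnah11 are given below by position only. The windows come from RefSeq (GRCm38.p6), reach from 250 bases before to 50 bases after the start of a gene, and were searched on both strands for the X-box, the palindromic motif that RFX transcription factors bind (a spacer of 0 to 3 bases was allowed), for its repeat unit GTTGCC and for the forkhead core GTAAACA. RFX factors and the forkhead factor Foxj1 are known regulators of motile cilium genes. Capitals mark the matched letters, each line is written 5′ to 3′ on the gene's strand, and 20 bases are kept on either side of the match.
Dnaic1, chr4:41569755-41569807, plus strand: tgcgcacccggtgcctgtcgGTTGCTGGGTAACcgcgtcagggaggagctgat
Dnaic2, chr11:114727366-114727418, plus strand: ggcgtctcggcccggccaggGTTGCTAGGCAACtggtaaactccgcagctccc
Dynlrb2, chr8:116504944-116504996, plus strand: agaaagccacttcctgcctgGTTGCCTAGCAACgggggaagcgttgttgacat
Dnah7a, chr1:53706959-53707004, minus strand: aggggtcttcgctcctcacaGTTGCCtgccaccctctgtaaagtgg
Dnah7a, close variant, chr1:53706809-53706861, minus strand: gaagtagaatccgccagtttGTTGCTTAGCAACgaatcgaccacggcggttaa
Dnah6, close variant, chr6:73221635-73221687, minus strand: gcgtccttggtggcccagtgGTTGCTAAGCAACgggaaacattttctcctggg

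The X-box was matched in Dnaic1 at positions -19 to -7 from the start, in Dnaic2 at -33 to -21 and in Dynlrb2 at -51 to -39. Of 9 members with a window, 3 held it, beside 1.53% of 32851 windows of the same length. The repeat unit was matched in 3 of the 9 windows, beside 12.5% of all windows, and in Dnaic2 and Dynlrb2 it lies inside the X-box match. In Dnah7a the repeat unit lies outside any full X-box match, at -200 to -195. A search that allowed 1 mismatching letter was added after the windows were seen. It also matched Dnah7a at -57 to -45 and at -200 to -189, where the match covers that repeat unit. Further matches were in Dnah6 at -36 to -24, Dnah9 at -82 to -70 and Dnah11 at 14 to 26. This search matched 7 of the 9 windows, beside 11.3% of all windows. The forkhead core was matched in 0 of the 9 windows, beside 3.65% of all windows, which says only that these letters are not in these stretches. Armc4 was not analysed here for promoter sequence. These matches describe letters and were not tested as binding sites.

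Levels below are log2 values after background correction and quantile normalisation of the raw intensities, and a probe counted as detected on an array when its deposited detection p was under 0.01. The arrays detected 11434 to 16175 of 46632 probes in neurospheres, 10742 to 12298 in SC ependymal cells, 11660 to 12132 in LVW ependymal cells and 12273 to 13487 in radial glia. Mean raw intensity ran between 198.6 and 654.1 in neurospheres, between 169.5 and 194 in SC, between 349.5 and 404.6 in LVW and between 360.2 and 375.1 in radial glia. Neurosphere replicate 3 stood apart as the brightest array with the most detected probes, and without it the calls on members in both neurosphere comparisons below were the same in number, 5 and 2. The share of all tested genes called in either direction then went from 30.2% to 35.4% against SC and from 20.3% to 30.9% against radial glia. The SD of log2 differences between arrays of 1 group was 0.58 to 1.27 in neurospheres, 0.81 to 0.99 in SC, 1.23 to 1.44 in LVW and 0.61 to 0.77 in radial glia. As a check on the labels, Foxj1, the master regulator of motile cilia, averaged 9.26 ± 0.22 in SC and 8.75 ± 0.78 in LVW, against 6.15 ± 0.37 in radial glia (SD, n = 3 each). Of the 7 ependymal markers with a probe, Tmem212 was detected on 0 arrays of any group, and Ak7 was detected on 0 neurosphere and 0 radial glia arrays. Of the 6 radial glia markers, Fabp7 was detected on 0 radial glia arrays and Sox2 on 1. Hes5, Nes, Pax6 and Slc1a3 were detected on all 3. Hes5 and Nes had their highest mean there (9.36 ± 0.63 and 9.17 ± 0.39), Sox2 and Slc1a3 their lowest (5.44 ± 0.49 and 11.26 ± 0.34). Pax6 averaged 11.46 ± 0.37 there and 11.55 ± 0.37 in SC. The 6 markers summed to 10210 to 37260 in neurospheres, 4558 to 5679 in SC, 8920 to 15230 in LVW and 6548 to 8870 in radial glia. The radial glia arrays also carried markers of 3 lists of other cells. The 8 choroid plexus markers summed to a raw intensity of 20030 to 25570 there, with only Kl detected on 0 arrays, and Ttr, which defines choroid plexus epithelium, averaged 13.84 ± 0.05 (SD, n = 3). The 6 endothelial and mural markers summed to 30.12 to 182.9 in neurospheres, 41.36 to 99.59 in SC and 136.2 to 990 in LVW, against 10530 to 15920 in radial glia, with Pecam1 detected on 0 arrays. In radial glia the mural genes Kcnj8, Pdgfrb and Rgs5 averaged 12.36 ± 0.15, 11.79 ± 0.42 and 11.42 ± 0.58. The endothelial genes were not higher there than in ependymal cells. Kdr averaged 5.82 in radial glia, 6.03 in SC and 6.14 in LVW, and Cldn5 5.58, 5.67 and 6.73. The 6 neuronal markers summed to 286.9 to 965.8 in neurospheres, 35.16 to 171.9 in SC and 40.61 to 302.2 in LVW, against 3994 to 4267 in radial glia, where 5 of 6 were detected on all 3 arrays. Myelin markers summed to 124.4 to 722.8 in neurospheres, 813.6 to 10140 in SC and 5304 to 13050 in LVW, against 104.3 to 219.8 in radial glia, with Mog detected on 0 arrays of any group.

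The 14 probes of the 8 members differed in whether they saw any signal. Of these probes, 7 were detected on at least 3 of the 12 arrays and were kept, and 6 of the 8 members had 2 probes. Both probes of Dnaic1 were kept, and the brighter one stands for the gene in the tests. For Dnaic2, Dnah5, Dnah7a and Armc4 the second probe fell short of that filter, so each of these genes rests on 1 probe. The second Dnah7a probe was detected on 1 array, neurosphere replicate 3, and ranged between 4.88 and 5.27 over all arrays, and the second Dnaic2 probe was detected on 1 LVW array, so the paired probes of these genes disagree. Whether those probes lie in parts of the gene that are not in the transcripts of these cells was not tested.

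**Figure D1:**
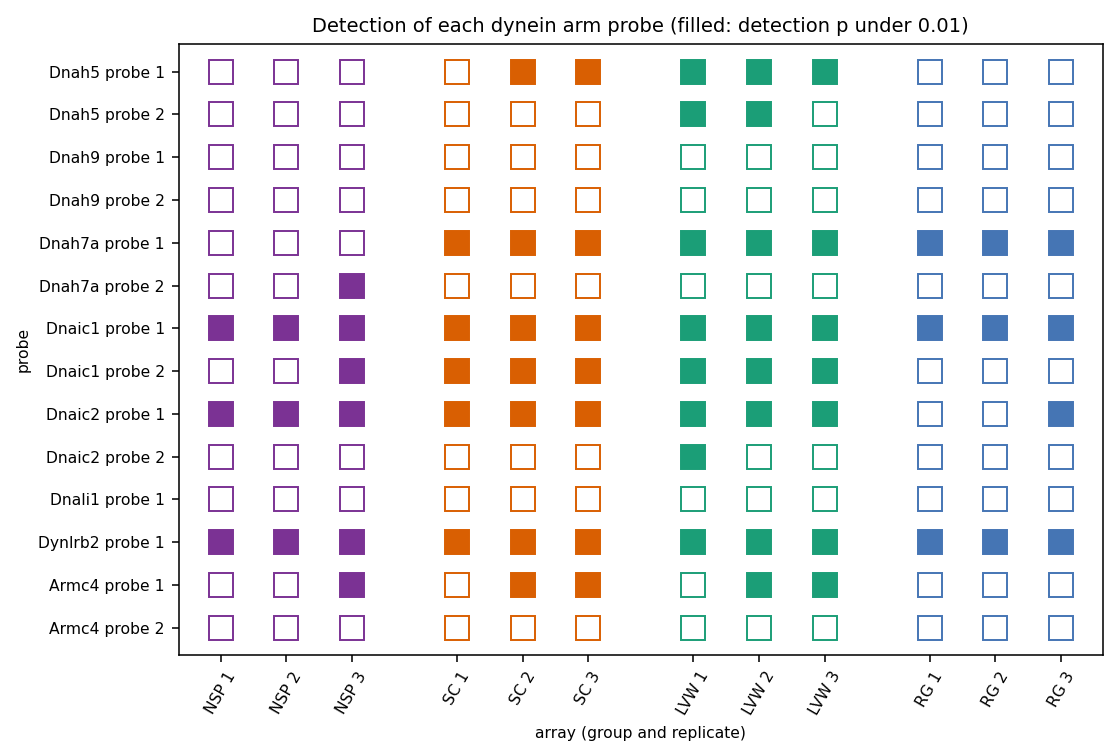
Detection of the 14 probes of the dynein arm genes (rows) on the 12 arrays (columns, by group and replicate; NSP, neurospheres; SC and LVW, ependymal cells; RG, radial glia). A filled square is a detection p under 0.01. The first probes of Dnaic1 and Dynlrb2 are filled on all 12 arrays, the 2 probes of Dnah9 and the probe of Dnali1 on 0.

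Among the heavy chains of the outer arm, Dnah5 was detected on ependymal arrays alone. The log2 level of Dnah5 was 4.71, 4.62 and 4.65 on the neurosphere arrays, 5.69, 6.48 and 6.18 on the SC arrays, 7.20, 6.37 and 7.59 on the LVW arrays and 4.62, 4.67 and 4.62 on the radial glia arrays. It was detected on 0 of 3 neurosphere arrays, 2 of 3 SC arrays, 3 of 3 LVW arrays and 0 of 3 radial glia arrays. All SC and LVW values lay above all neurosphere and radial glia values, and the SC and LVW values overlapped, since SC replicate 2 exceeded LVW replicate 2. Its second probe was detected on LVW replicate 1, at 8.64, and LVW replicate 2, at 5.78, and on no other array, with 4.80 on LVW replicate 3. Dnah9, the heavy chain that pairs with Dnah5 in distal outer arms, was undetected on every array with both probes. Its highest level was 5.85, on an LVW array, and its group means ran between 4.55 and 5.06. An undetected probe says only that the signal was not distinct from the negative controls.

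Among the heavy chains of the inner arms, Dnah7a, a single-headed motor, was well above background in both kinds of ependymal cell and undetected in neurospheres. Its log2 level was 5.04, 5.11 and 5.02 in neurospheres, 10.22, 9.44 and 9.61 in SC, 9.40, 9.25 and 10.04 in LVW, and 5.85, 6.83 and 6.73 in radial glia. SC and LVW values overlapped, every radial glia value lay below them, and every neurosphere value lay below radial glia. Dnah7a has near-identical copies in the mouse genome, Dnah7b and Dnah7c, and the probe's letters were not used here, so how much of this signal comes from the copies cannot be told apart. Dnah7b had a probe that was not detected widely enough to be tested.

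The intermediate chains Dnaic1 and Dnaic2 (now also named Dnai1 and Dnai2) form the base of the outer arm, and both were high in ependymal cells. The log2 level of Dnaic1 was 6.10, 6.58 and 7.96 in neurospheres, 13.07, 13.40 and 13.21 in SC, 13.10, 13.27 and 13.51 in LVW, and 5.50, 5.94 and 6.02 in radial glia. It was detected on all 12 arrays, with raw intensities of 27.81 to 451.8 in neurospheres, 4938 to 6248 in SC, 9347 to 14430 in LVW and 40.36 to 63.61 in radial glia. Neurosphere replicate 3 was the highest of its group, and the neurosphere and radial glia values did not overlap. The second Dnaic1 probe gave the same order between ependymal cells and the other groups, with 4.77, 4.93 and 5.82 in neurospheres, 10.48, 10.89 and 10.98 in SC, 10.92, 11.17 and 11.45 in LVW, and 4.83, 5.18 and 5.09 in radial glia. With this probe the neurosphere and radial glia values overlapped. Outside the ependymal groups it was detected on neurosphere replicate 3 alone, so it passed the filter only with ependymal arrays.

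Dnaic2 had a log2 level of 6.56, 6.25 and 5.15 in neurospheres, 10.01, 8.90 and 9.58 in SC, 8.38, 8.66 and 9.34 in LVW, and 5.24, 5.10 and 5.78 in radial glia. It was detected on all neurosphere, SC and LVW arrays and on 1 of 3 radial glia arrays. SC and LVW overlapped, as did neurospheres and radial glia, and the ependymal values all lay above the rest. Here neurosphere replicate 3 was the lowest of its group after normalisation, opposite to its place for Dnaic1. Its raw intensity was 36.81, against 39.45 on replicate 1 and 35.89 on replicate 2, so the raw signals did not share that order. Dnali1, the light intermediate chain of some inner arms, had group means between 4.74 and 4.80 and was detected on 0 arrays, so its 1 probe shows no level in any group.

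Dynlrb2, a roadblock light chain that is known in both axonemal and cytoplasmic dyneins, was detected on all 12 arrays. Its log2 level was 8.80, 9.06 and 7.48 in neurospheres, 14.10, 13.78 and 14.08 in SC, 14.22, 13.90 and 14.08 in LVW, and 9.24, 10.36 and 10.49 in radial glia. SC and LVW overlapped, radial glia lay below them, and neurospheres lay below radial glia on every array. Armc4, part of the docking complex that fixes outer arms to the doublet, stayed near the limit of detection. Its log2 level was 5.98, 5.57 and 5.47 in neurospheres, 5.94, 5.90 and 6.16 in SC, 5.81, 5.84 and 5.98 in LVW, and 4.99, 5.30 and 5.46 in radial glia. It was detected on 1 neurosphere array, 2 SC arrays, 2 LVW arrays and 0 radial glia arrays, and the ependymal values overlapped those of neurospheres but not those of radial glia.

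**Figure D2:**
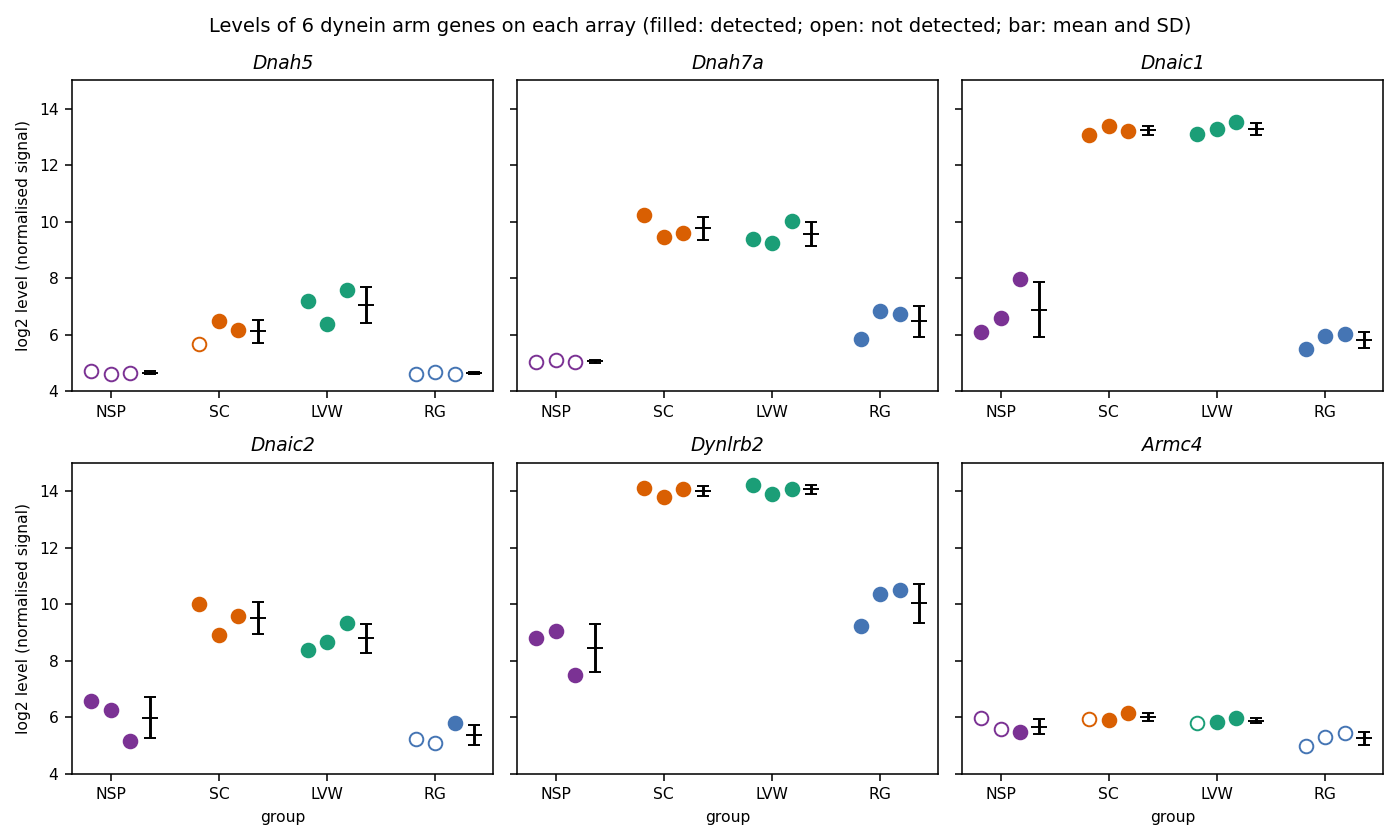
Log2 level of the 6 tested dynein arm genes on each array, by group (NSP, neurospheres; SC and LVW, ependymal cells; RG, radial glia); filled points were detected, open points were not, and the black bar is the group's mean with its SD (n = 3). Dnaic1 lies between 13.07 and 13.51 on the 6 ependymal arrays and between 5.50 and 7.96 on the other 6.

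Neurospheres were compared with the SC ependymal cells they were grown from, to see how RNA of the arms differs in culture. Of the 6 tested genes, 5 fell in neurospheres and 0 rose, where 14.7% of all 9526 tested genes fell and 15.5% rose at an adjusted p under 0.05 (limma, Benjamini-Hochberg adjustment over all tested genes). Dnaic1 averaged 6.88 ± 0.97 in neurospheres and 13.23 ± 0.17 in SC (SD, n = 3 each), a log2 change of -6.35 ± 0.42 (SE) or 81.3-fold, with an adjusted p of 6.18e-07. The light chain Dynlrb2 averaged 8.44 ± 0.85 in neurospheres and 13.99 ± 0.18 in SC, a change of -5.54 ± 0.44 (adjusted p = 2.66e-06). The inner arm motor Dnah7a averaged 5.06 ± 0.05 in neurospheres and 9.76 ± 0.41 in SC, and since it was undetected in neurospheres it fell at least 17.1-fold (adjusted p = 1.6e-06). Dnaic2 fell by 3.51 on the log2 scale (SE 0.44, adjusted p = 0.000112), to 5.99 ± 0.74 in neurospheres against 9.50 ± 0.56 in SC. Dnah5 was at least 1.37-fold lower (adjusted p = 0.00734), a call that was lost with the authors' normalised values (adjusted p = 0.0529), with median scaling (adjusted p = 0.101) and against a minimum log2 change of 1 (adjusted p = 0.434). On the authors' values the log2 changes were smaller for Dnaic1 (-5.51), Dnaic2 (-2.27) and Dnah7a (-2.83), and the second Dnaic1 probe changed by -5.61. Armc4 changed by -0.33 ± 0.27 (adjusted p = 0.39), which did not pass. The bounds set the higher group against the weakest detected signal of the lower group's arrays.

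The median change of the 6 genes was -4.11, or -3.80 with undetected genes at their bounds, beside 0.08 over all tested genes. Dnah5 could pass the filter only through ependymal arrays and so had to differ. Armc4 and the second Dnaic1 probe were each detected on 1 array outside the ependymal groups, so they too passed only with ependymal arrays. The counts over the 6 genes and the changes of the second Dnaic1 probe describe them and support nothing further. In bulk RNA, fewer ciliated cells and less RNA per cell cannot be told apart. The ependymal markers did not move as 1 list. Foxj1 averaged 5.58 ± 0.43 in neurospheres and 9.26 ± 0.22 in SC, a change of -3.68 ± 0.41 (adjusted p = 3.94e-05). Mia averaged 5.68 ± 0.87 in neurospheres and 13.90 ± 0.16 in SC. Of the neurosphere arrays, 1 detected Foxj1 and 2 detected Mia. Ak7 was not called (adjusted p = 0.102), S100b averaged 5.89 ± 1.44 in neurospheres and 6.49 ± 0.15 in SC, and Vim, which many progenitors express, averaged 14.13 ± 0.21 in neurospheres and 14.16 ± 0.05 in SC. Dynlrb2 is itself in that list. The part of these markers, and of the myelin markers that were uneven among SC arrays, was not tested.

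SC and LVW ependymal cells were compared to see whether the region of origin sets the level of the arms. Of the 6 genes, 0 rose and 0 fell in SC by limma, and 1 had an unadjusted p under 0.05, while 3.09% of all tested genes rose and 4.95% fell. Dnaic1 differed by -0.06 ± 0.42, with a 95% interval of -0.99 to 0.86, and Dynlrb2 by -0.08 ± 0.44, with an interval of -1.05 to 0.89. Dnah7a differed by 0.19 ± 0.35 (interval -0.59 to 0.97) and Dnaic2 by 0.71 ± 0.44 (interval -0.27 to 1.68). These intervals leave room for changes of up to about 1 log2 unit or more in either kind of cell. Dnah5 was the gene with the low unadjusted p (0.0185). It averaged 6.12 ± 0.40 in SC and 7.05 ± 0.63 in LVW, a change of -0.94 ± 0.34 with an interval of -1.68 to -0.19, and its adjusted p of 0.13 did not pass. Without LVW replicate 2, the lowest LVW array for this gene, the change was -1.28 and the adjusted p 0.0324. The median change was 0.03, beside 0.05 over all genes. This comparison is also the test of whether the 2 ependymal groups stand differently from radial glia.

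SC ependymal cells were set against radial glia, and 5 of the 6 genes rose and 0 fell, where 14.8% of all tested genes rose and 17% fell. Dnaic1 averaged 13.23 ± 0.17 in SC and 5.82 ± 0.28 in radial glia, a change of 7.41 ± 0.42 or 170-fold (adjusted p = 1.72e-07). The size depends on the probe and the scale: the second Dnaic1 probe gave 5.75 ± 0.33 and the authors' values 6.02, and the radial glia signal was close to background (detection p between 0.00312 and 0.00936). Dnaic2 rose by 4.13 ± 0.44 (adjusted p = 2.66e-05), Dynlrb2 by 3.96 ± 0.44 (adjusted p = 3.75e-05) and Dnah7a by 3.29 ± 0.35 (adjusted p = 2.77e-05). On the authors' values the changes were 2.50 for Dnaic2, 2.30 for Dnah7a and 3.95 for Dynlrb2. Dnah5 was at least 1.44-fold higher in SC (adjusted p = 0.00604), a call lost with median scaling (adjusted p = 0.0885) and against a minimum log2 change of 1 (adjusted p = 0.39), and just kept with the authors' values (adjusted p = 0.0474). Armc4 differed by 0.75 ± 0.27 with an adjusted p of 0.0505, just outside the threshold, although its SC and radial glia values did not overlap, and it passed under 6 of the other processing settings.

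LVW ependymal cells gave a like list against the same radial glia arrays, so that these 2 comparisons are not independent. Of the 6 genes, 5 rose in LVW and 0 fell, where 16.7% of all tested genes rose and 19.7% fell. Dnaic1 averaged 13.29 ± 0.21 in LVW and 5.82 ± 0.28 in radial glia, a change of 7.48 ± 0.42 or 178-fold (adjusted p = 1.53e-07). The second Dnaic1 probe gave 6.15 ± 0.33 and the authors' values 6.08. Dynlrb2 rose by 4.04 ± 0.44 (adjusted p = 2.94e-05), Dnaic2 by 3.42 ± 0.44 (adjusted p = 0.000101) and Dnah7a by 3.09 ± 0.35 (adjusted p = 3.97e-05). On the authors' values Dnaic2 changed by 1.89 and Dnah7a by 2.13, and with median scaling Dynlrb2 by 3.01 and Dnah7a by 2.36. Dnah5 was at least 2.75-fold higher in LVW (adjusted p = 0.000195), and Armc4 differed by 0.63 ± 0.27 (adjusted p = 0.0856). The median change was 3.62 for SC and 3.26 for LVW, beside -0.14 and -0.19 over all genes. Choroid plexus markers summed to 567.1 to 843.3 in SC and 4307 to 7127 in LVW, against 20030 to 25570 in radial glia. The list did not move as 1. Ttr, Otx2 and Kcne2 had their highest mean in radial glia, and Kl was undetected. Folr1 averaged 9.73 in SC and 9.57 in LVW against 8.11 in radial glia, and Aqp1 8.51 in SC against 6.96. Clic6 (11.63 against 11.51) and Sostdc1 (9.07 against 8.92) in LVW were close to radial glia, and both were lower in SC. The part of such cells, or of the neuronal, mural and myelin markers given above, in these changes was not tested.

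Neurospheres and radial glia were then compared. Of the 6 genes, 0 rose and 2 fell in neurospheres, where 9.23% of all tested genes rose and 11.1% fell. Dynlrb2 averaged 8.44 ± 0.85 in neurospheres and 10.03 ± 0.68 in radial glia, a change of -1.58 ± 0.44 (adjusted p = 0.0261). Dnah7a averaged 5.06 ± 0.05 in neurospheres and 6.47 ± 0.54 in radial glia, and was at least 1.75-fold lower in neurospheres (adjusted p = 0.0151). Both calls were lost without radial glia replicate 2 (adjusted p = 0.0884 for Dynlrb2 and 0.0601 for Dnah7a) and without radial glia replicate 3 (adjusted p = 0.11 and 0.0652). Dnah7a also lost its call without neurosphere replicate 1 (adjusted p = 0.0517), and 0 of the 6 genes passed with median scaling in place of quantile normalisation. Radial glia replicate 1 was the lowest of its group for both genes.

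The intermediate chains did not share that direction in these libraries. Dnaic1 was 1.07 ± 0.42 higher in neurospheres (adjusted p = 0.1) and Dnaic2 0.61 ± 0.44 higher (adjusted p = 0.372), and neither passed. For Dnaic1 the change was 0.53 without neurosphere replicate 3 (adjusted p = 0.195) and 1.46 without replicate 1, where it passed (adjusted p = 0.0444), while the second Dnaic1 probe differed by 0.14 ± 0.33 (adjusted p = 0.828). Dnah5 was undetected in both groups, and Armc4 differed by 0.42 ± 0.27 (adjusted p = 0.3). The median change was 0.22, or 0.04 with undetected genes at their bounds or at 0, beside -0.05 over all genes. The choroid plexus list, whose cells in the embryo also carry cilia, summed to 34.37 to 316.5 in neurospheres with 0 of 8 genes detected on all 3 arrays, against 20030 to 25570 in radial glia with 5 of 8, and its part in these 2 calls was not tested. In neurospheres Aqp1, Folr1, Kl, Otx2 and Ttr were detected on 0 arrays.

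**Figure D3:**
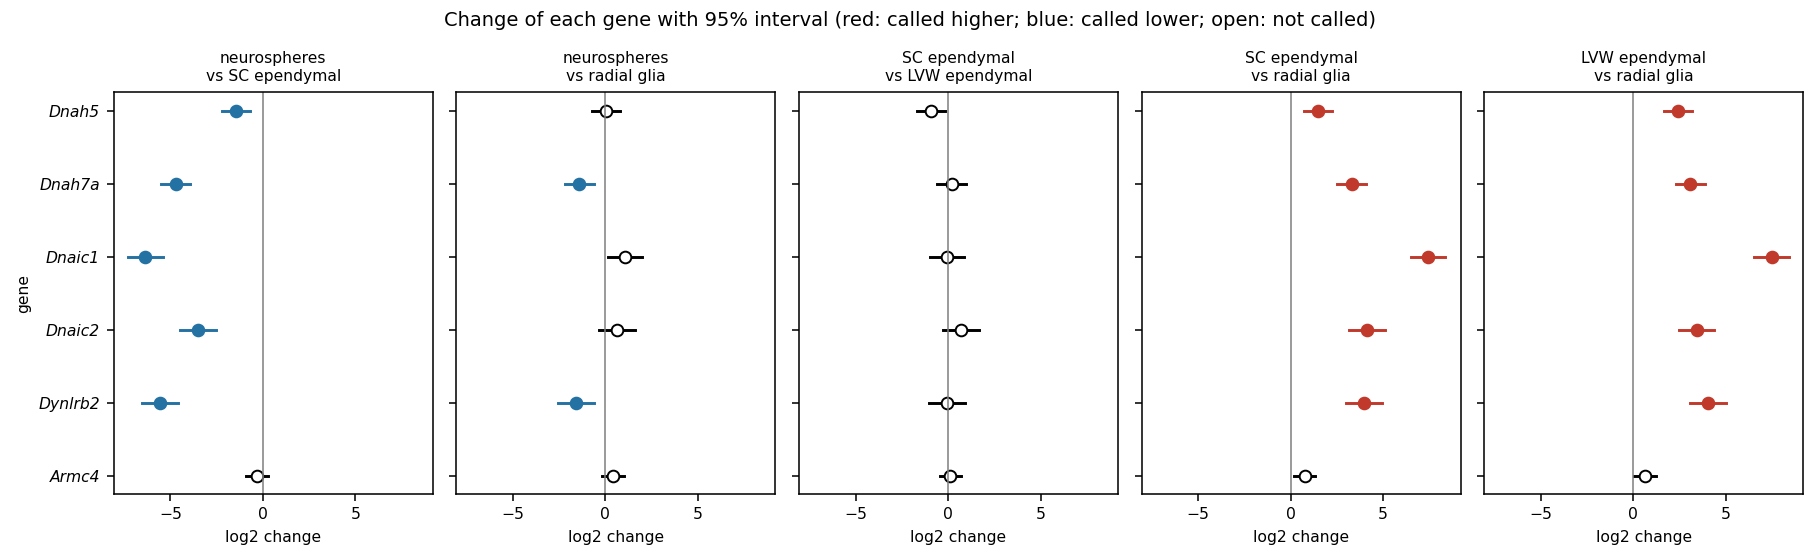
Log2 change of the 6 tested genes (rows) in the 5 comparisons (panels), with the 95% interval as a line; red points were called higher, blue points lower and open points were not called at an adjusted p under 0.05. In the comparison of SC with LVW the open points lie between -0.94 and 0.71, while Dnaic1 lies at 7.41 and 7.48 in the 2 comparisons of ependymal cells with radial glia.

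The order of group means differed between members at both ends, with no SC to LVW step called. Dnah5 was undetected in neurospheres and radial glia (4.66 and 4.64), so the order of these groups is not distinct from background for it. Dnaic1 and Dnah5 ran LVW, SC, neurospheres and radial glia from high to low, and Dnaic2 ran SC, LVW, neurospheres and radial glia. For these 3 genes only the step between ependymal cells and neurospheres was called. Of the steps that were not called, the 95% interval excluded 0 for Dnah5 between SC and LVW (-1.68 to -0.19) and for Dnaic1 between neurospheres and radial glia (0.14 to 1.99), and the other intervals held 0. For Dnaic2 that step is neurospheres against LVW, -2.81 ± 0.44 (adjusted p = 0.000511), a comparison in which 5 of the 6 genes fell and 16.4% of all tested genes fell. Dnah7a ran SC, LVW, radial glia and neurospheres, and Dynlrb2 LVW, SC, radial glia and neurospheres, with only the first step not called. Armc4 ran SC, LVW, neurospheres and radial glia, and 0 of its steps were called.

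Across the 12 arrays the 6 genes varied together to different degrees. Pearson's r ran between 0.621, for Dnah7a with Armc4, and 0.984, for Dnah7a with Dynlrb2, and between 0.817 and 0.984 among the 5 genes other than Armc4. The arrays fall into ependymal and other cells, so these values mostly restate that split and carry no test. The mean of the 6 centred profiles lay between -2.02 and -1.78 in neurospheres, between 1.67 and 1.86 in SC, between 1.57 and 2.11 in LVW and between -2.07 and -1.46 in radial glia.

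Outside the dynein lists, the 8 genes whose profile was most like that mean over the 12 arrays were Lrrc18 (r = 0.997), Bbox1, Fam216b, Morn3, Cckbr and Htr5b (r = 0.995 each), Fam166b and Wdr38 (r = 0.994 each). They were the nearest among 245 tested genes over r = 0.95. Bbox1 makes carnitine, Cckbr is a receptor for gastrin and cholecystokinin, and Htr5b is a serotonin receptor. Htr5b averaged 4.56 ± 0.02 in neurospheres, 12.58 ± 0.14 in SC, 12.62 ± 0.21 in LVW and 4.75 ± 0.35 in radial glia (SD, n = 3 each). Bbox1 averaged 4.70 ± 0.10 in neurospheres, 11.21 ± 0.21 in SC, 11.26 ± 0.63 in LVW and 4.55 ± 0.02 in radial glia. The nearest gene to each member alone was Styxl1 for Dnaic1 (r = 0.989), Marchf10 for Dnaic2 (r = 0.986), 2610301B20Rik for Dnah5 (r = 0.966), Wdr60 for Dnah7a (r = 0.990), Ccdc114 for Dynlrb2 (r = 0.989) and Acad10 for Armc4 (r = 0.947). Ccdc114 is a subunit of the outer arm docking complex and Wdr60 an intermediate chain of the dynein that carries cargo back down the cilium.

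**Figure D4:**
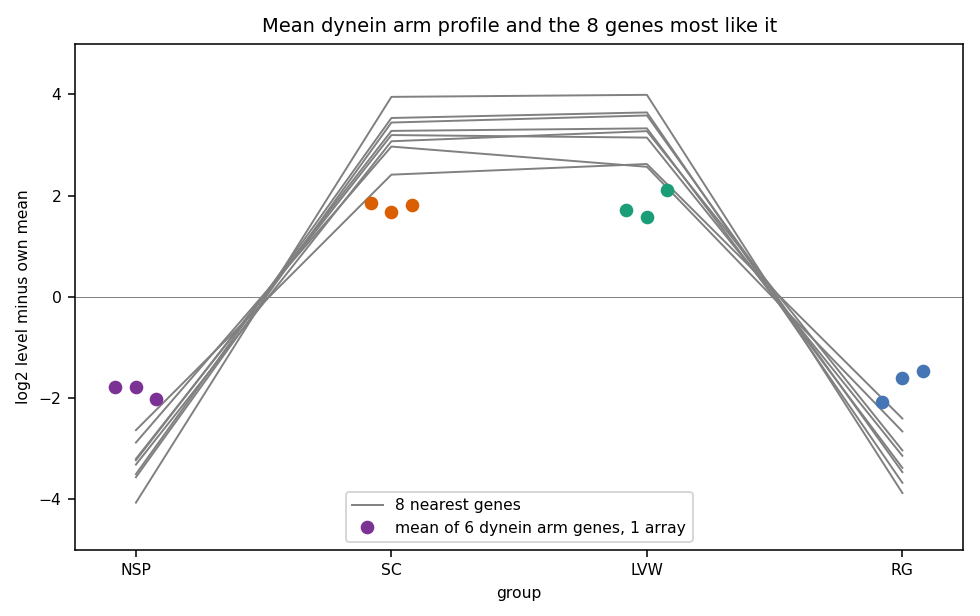
Mean centred log2 level of the 6 tested dynein arm genes on each array (points, coloured by group) and group means of the 8 most similar genes, each minus its own mean over the 4 groups (grey lines). The arm profile lies between 1.57 and 2.11 on the ependymal arrays and between -2.07 and -1.46 on the others.

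Other axonemal dynein chains on the array were counted in the same way. For this and each list below, the counts stand beside the same shares of all tested genes. In neurospheres against SC 14.7% fell and 15.5% rose, and in SC against LVW 3.09% rose and 4.95% fell. Against radial glia 14.8% rose and 17% fell in SC, and 16.7% rose and 19.7% fell in LVW. In neurospheres against radial glia 9.23% rose and 11.1% fell. Dnah2, Tctex1d4 and Tctex1d1 were detected on 0 neurosphere and 0 radial glia arrays and so passed the filter only through ependymal arrays, and Dnah8 passed it only through neurospheres, so these 4 had to differ between some groups and the counts describe the list without supporting more. In neurospheres, 6 of the 8 tested chains fell against SC and 1 rose, with a median of -3.47 (-2.59 with undetected genes at bounds). The inner arm heavy chain Dnah1 fell by 6.07 on the log2 scale (SE 0.41, adjusted p = 7.03e-07), to 7.62 ± 0.94 in neurospheres against 13.69 ± 0.13 in SC, the light chain relative Tctex1d1 was at least 19.7-fold lower, and Wdr78, an intermediate chain of the inner arm, fell by 3.55 (SE 0.56, adjusted p = 0.000609). The exception was Dnah8, an outer arm heavy chain known from sperm flagella. It averaged 8.12 ± 0.29 in neurospheres, where it was detected on 3 of 3 arrays, and 4.79 ± 0.03 in SC, where it was detected on 0, a change of at least 4.5-fold. Dnah8 was also at least 5.78-fold higher in neurospheres than in radial glia, and 1 LVW array detected it.

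Between SC and LVW, 1 of the 8 other chains rose and 0 fell. This was Dnah2, a heavy chain of the inner arm with 2 motors, which averaged 7.56 ± 0.52 in SC and 5.91 ± 0.13 in LVW, a change of 1.65 ± 0.29 (adjusted p = 0.0051). Against radial glia, 6 of 8 rose in SC (median 3.21) and 7 of 8 in LVW (median 2.81), and 0 fell in either. Tctex1d1, undetected in radial glia, was higher by at least 20.6-fold in SC and 19-fold in LVW, and Dnah1 changed by 4.51 ± 0.41 in SC and 4.46 ± 0.41 in LVW. Wdr78 was 3.70 ± 0.56 higher in SC, and Tctex1d4, another light chain relative, at least 8.1-fold higher in LVW. In neurospheres against radial glia, Dnah1 fell by 1.57 (SE 0.41, adjusted p = 0.0194) and the outer arm light chain Dnal1 was at least 1.19-fold lower (adjusted p = 0.0202), while 5 of 8 chains were not called.

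The assembly and docking factors, which build arms in the cytoplasm or anchor them, were described by the same counts. Of 10 tested, 8 fell and 0 rose in neurospheres against SC, with a median of -3.79 (-3.38 at bounds). Ttc25 and Cfap300 were detected on ependymal arrays alone and passed the filter only through them. Daw1, detected on 2 radial glia and 0 neurosphere arrays, also passed only with ependymal arrays. The changes of these genes and the counts describe the list without supporting more. Zmynd10, an assembly factor, averaged 4.85 ± 0.17 in neurospheres, where it was detected on 0 arrays, and 12.40 ± 0.21 in SC, and was at least 107-fold lower (adjusted p = 1.27e-07). Daw1, which is known to help outer arms enter the cilium, was at least 94.5-fold lower (adjusted p = 1.09e-06). The docking factor Ccdc151 fell by 5.75 on the log2 scale (SE 0.43, adjusted p = 1.52e-06). It averaged 5.45 ± 0.39 in neurospheres, near background, and was detected there on 1 array. Against radial glia, 8 of 10 rose in SC and 0 fell, among them Daw1 with a change of 5.74 ± 0.52, Ccdc151 with 3.79 ± 0.43 and Ccdc114 with 3.78 ± 0.55. In LVW, 8 of 10 rose and 1 fell. Daw1 changed by 5.55 ± 0.52 and Zmynd10 by 3.67 ± 0.41, and the docking factor Ttc25, undetected in radial glia, was at least 9.96-fold higher.

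The factor that fell in LVW was Dnaaf1, a leucine-rich assembly factor, with a change of -1.59 ± 0.56 (adjusted p = 0.0455) and an SD of 1.39 among the LVW arrays, against 0.30 among the radial glia arrays. It was likewise lower in neurospheres than in radial glia, by -1.97 ± 0.56 (adjusted p = 0.0283). In that comparison 4 of 10 factors fell and 0 rose, with Zmynd10 at least 8.9-fold lower (adjusted p = 3.92e-05), Ccdc151 changed by -1.95 ± 0.43 (adjusted p = 0.00763) and Ccdc103, named after its value was seen, by -1.29 ± 0.34 (adjusted p = 0.0198). Ccdc151 and Ccdc103 were each detected on 1 neurosphere array, so the sizes of their changes rest partly on background. Between SC and LVW, 1 factor fell. Cfap300, an assembly factor, averaged 5.97 ± 0.40 in SC and 7.24 ± 0.58 in LVW, a change of -1.26 ± 0.34 (adjusted p = 0.0414).

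The dynein-2 chains, which power transport from the ciliary tip back to the base in primary and motile cilia alike, numbered 3 tested genes. All 3 fell in neurospheres against SC (median -2.36), with Wdr60 changed by -4.00 ± 0.26 (adjusted p = 5.01e-07), Wdr34 by -2.36 ± 0.35 and the heavy chain Dync2h1 by -1.77 ± 0.37. Against radial glia, 2 of 3 rose in SC (Wdr60 and Wdr34) and 3 of 3 in LVW, with medians of 1.35 and 1.85. Wdr60 was 2.82 ± 0.26 higher in SC and 2.81 ± 0.26 higher in LVW. In neurospheres against radial glia, Wdr60 changed by -1.18 ± 0.26 (adjusted p = 0.00722) and the other 2 were not called, and 0 of 3 were called between SC and LVW.

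The cytoplasmic and shared dynein chains, which move cargo along microtubules in every cell, were counted in the same way. Of all tested genes, 30.2% were called in either direction in neurospheres against SC and 8.04% in SC against LVW. Against radial glia these shares were 31.8% in SC, 36.5% in LVW and 20.3% in neurospheres. The counts of so small a list were not tested against these shares. Of 7 tested, 1 rose and 0 fell in neurospheres against SC (median 0.33), 0 were called in SC against radial glia (median -0.31), 1 fell in LVW against radial glia (median 0.07), and 1 rose in neurospheres against radial glia (median 0.19). The riser was the light chain Dynlt3, with a change of 2.11 ± 0.32 against SC (adjusted p = 0.000489) and of 2.17 ± 0.32 against radial glia (adjusted p = 0.0006). The gene that fell in LVW was Dync1h1, the cytoplasmic heavy chain, changed by -2.21 ± 0.69 (adjusted p = 0.0256). Between SC and LVW the light chain Dynll1, found in both dyneins, averaged 9.91 ± 0.45 in SC and 11.20 ± 0.36 in LVW and fell by 1.29 (SE 0.35, adjusted p = 0.0485). Dynlrb1, the close paralog of Dynlrb2 in cytoplasmic dynein, averaged 11.30 ± 0.23 in neurospheres, 10.36 ± 0.16 in SC, 10.27 ± 0.59 in LVW and 11.11 ± 0.29 in radial glia, and was called in 0 of the 5 comparisons, where Dynlrb2 was called in 4.

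**Figure D5:**
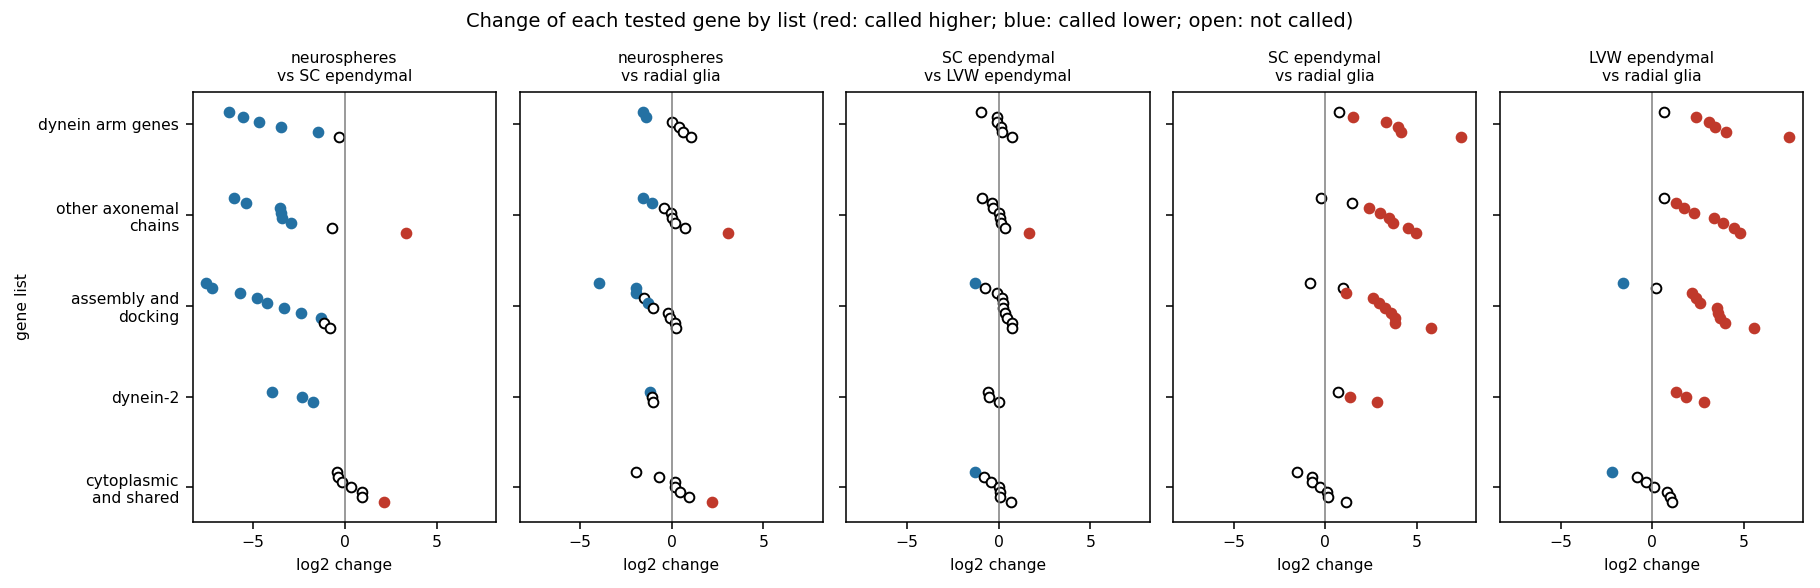
Log2 change of each tested gene of the dynein arm genes and of 4 other dynein lists (rows) in the 5 comparisons (panels); red points were called higher, blue points lower and open points were not called. Points of genes undetected in 1 of the groups, such as Zmynd10 and Daw1 (undetected in neurospheres) and Dnah8 (undetected in SC and radial glia), are differences against background: in neurospheres against SC the bounds are at least 107-fold and 94.5-fold lower for the first pair and 4.5-fold higher for Dnah8.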

How the data were processed

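RNA of 12 arrays in 4 groups of 3 was analysed; the series' design text calls the replicates independent and biological. The deposited table of raw values gives, per the file headers, an intensity for each probe on each array and a detection p-value. Intensities below 0 occur, as after background subtraction. The authors' table of normalised values, which the file does not describe, is on a log2 scale by its slope against log2 raw signals (0.96 to 1.04), and its sorted values match between arrays within 0.000528. The tools, per the submitters' processing notes, were BeadStudio and lumi, without versions.

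Raw intensities were background corrected (normal-exponential model, controls inferred from detection p-values), quantile normalised and logged with an offset of 16 (neqc, limma 3.58.1, R 4.3.3). Of 46632 probes, 29976 had 1 symbol, 10 several and 16646 none. Probes with a detection p under 0.01 on at least 3 arrays were kept (15760, of which 12211 had a symbol), and the brightest represented a gene. A fold is a bound where the gene was detected on 0 arrays of the lower group. A 4-group model was fitted to the 12 arrays (lmFit, eBayes), with Benjamini-Hochberg adjustment over 9526 genes and calls at 0.05. One variance estimate is shared by all groups, and LVW arrays spread more. The fit was tested on simulated data.

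The members, lists, motifs and tests were chosen with earlier results of these data known. Named genes are all members and probes, the 8 genes most like their mean profile, the nearest gene to each tested member, and in each wider list the 3 largest called changes of a comparison and calls against its majority. Replicate numbers are not stated to pair groups: deviations of 18 same-numbered pairs correlated between -0.23 and 0.32, with 3 over 0.1, so no pairing was used. Alternatives were 2 background corrections, median scaling, the authors' values, 2 probe filters, 2 probe rules, array weights, the block, 6 arrays alone, a minimum log2 change of 1 and each array left out. The number of arrays limits the precision. Sequences are from RefSeq, GRCm38.p6.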

Additional observations from a re-analysis of the deposited data

How the results depend on the processing

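Counts of called dynein arm genes held within 1.5 times the reported count in 82 recomputations and left that range in 8. Those 8 lay in neurospheres against radial glia and SC against LVW, and the other 3 comparisons had 4 to 6 calls, with Dnah5 or Armc4 the gene that moved. With the replicate block the 5 counts were 5, 5, 5, 2 and 0, as without it, and the block changed no call of a member. The 2 calls of neurospheres against radial glia became 1 with normexp without controls, 1 with the authors' values, 1 in a fit to the 6 arrays alone, 0 with median scaling and 0 with a minimum log2 change of 1, and ran between 0 and 2 over single arrays left out (0 without radial glia replicate 2 or 3). These counts add calls in either direction, so an equal count need not hold the same genes. Without neurosphere replicate 1, Dnah7a lost its call and Dnaic1 passed as higher in neurospheres. In neurospheres against radial glia 20.3% of all tested genes were called in the reported fit. The share was 20.7% with normexp without controls and with the authors' values, and 21.9% with the 6 arrays alone. It was 12.8% with median scaling, 6.92% with the minimum change, and 16.4% and 14% without radial glia replicate 2 or 3. The 0 calls of SC against LVW ran between 0 and 1 (Dnah5, without LVW replicate 2), beside 8.04% of all tested genes and 7.98% without that array.

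Of the single-gene changes, 9 changed sign, all in changes that were not called. Between SC and LVW, median scaling turned Dnaic1 to 0.58 and Dynlrb2 to 0.67. With single arrays left out of that comparison, Dnaic1 ran between -0.16 and 0.05 (above 0 without LVW replicate 3 or SC replicate 1, at 0.01), Dynlrb2 between -0.16 and 0.02, and Dnah7a between -0.04 and 0.43. Median scaling turned Armc4 in neurospheres against LVW to 0.05, and Dnah5 in neurospheres against radial glia was 0.00 without background correction and ran between -0.00 and 0.04 with single arrays left out. Median scaling also moved the median of all genes to 0.35 in neurospheres against SC, -0.61 in SC against radial glia and -0.80 in LVW against radial glia. The cause of these changes was not tested. Signal over background limits Dnah5, Armc4, Dnah9 and Dnali1.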
